A study of Homo sapiens with 12 samples.

Results

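The genes described here were 9 angiogenic factors and receptors of U87 cells: the ligands VEGFA, VEGFB, VEGFC, PGF, ANGPTL4, ADM and EDN1, and the neuropilin receptors NRP1 and NRP2. They were chosen by symbol, as the rows of the deposited gene table whose Ensembl identifiers carry these names, and make up 9 of the 20263 genes in the table. Of these, 8 were among the 11731 genes tested, the filter being 1 TPM or more in 3 or more libraries. PGF reached that level in 2 libraries and was not tested. EDN1 reached it in 3 libraries, all of HIF2α-ko, so it was tested only through the group in which it was highest. TPM is a measure of transcript abundance that divides reads by gene length and scales each library to the same total, so that levels can be compared between genes.

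U87 (U-87 MG) is an established human glioblastoma cell line. All cells were held under hypoxia with 1% O2, for 72 h according to the record of the series, and there was no normoxic group. The methods of the study give a shorter exposure for mRNA measurements in general, so the time that applies to these libraries is uncertain. Control cells (vector) carried an empty vector, HIF1α-ko cells carried a knockout of HIF1A, HIF2α-ko cells one of EPAS1, and HIF1α/2α-ko cells both. Poly(A) RNA of 3 libraries per group was sequenced, 12 libraries in 4 groups, and each knockout was compared with vector. Whether a knockout line was 1 clone or a pool, and whether the 3 libraries of a group came from separate cultures, is not given in the sources used here, so p-values measure the spread between these libraries, which may be technical.

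HIF1α and HIF2α are the oxygen-labile subunits of the hypoxia-inducible factors, which pair with ARNT and bind a short DNA motif, the hypoxia response element, near their target genes. VEGFA is a classic target and drives the sprouting of vessels through the receptor KDR on endothelial cells. VEGFB and PGF bind FLT1, and VEGFC acts through FLT4, mainly on lymphatic endothelium. NRP1 and NRP2 are co-receptors for VEGF ligands and for secreted semaphorins. ANGPTL4 is a secreted inhibitor of lipoprotein lipase that also acts on vessels, ADM encodes the vasodilator peptide adrenomedullin, and EDN1 encodes the vasoconstrictor endothelin-1. Tumour cells release these ligands, and most of their receptors sit on the cells of the vessel wall.

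The bases upstream of 4 members are shown. ANGPTL4, ADM and NRP2 had the largest departures from additivity, and EDN1, like ANGPTL4, was lowest in HIF1α-ko and HIF1α/2α-ko and highest in HIF2α-ko. RefSeq transcript starts were available for 7 members on GRCh38.p14, and the 250 bases before each start were searched for the core of the hypoxia response element, ACGTG or GCGTG, on both strands (CACGT or CACGC as read on the strand of the gene), with overlapping matches counted. Capitals mark the match and each sequence reads 5′ to 3′ on the strand of its gene, which is the plus strand for all 4. In ANGPTL4 the printed bases are chr19:8363905-8364150, and the match begins 234 bases before the start. In EDN1 they are chr6:12290111-12290360, with a match 123 bases before the start. In ADM only the 25 bases at chr11:10304962-10304986 around the match, 101 bases before the start, are given, because all 250 bases of the window, the printed ones included, lie in an ADM exon of GENCODE 29. In NRP2 they are chr2:205682251-205682499, and these letters were not found in the window.
ANGPTL4: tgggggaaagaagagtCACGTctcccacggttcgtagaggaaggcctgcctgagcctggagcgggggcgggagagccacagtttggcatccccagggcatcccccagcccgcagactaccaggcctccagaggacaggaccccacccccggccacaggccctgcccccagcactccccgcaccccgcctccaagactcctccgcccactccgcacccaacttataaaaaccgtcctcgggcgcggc
EDN1: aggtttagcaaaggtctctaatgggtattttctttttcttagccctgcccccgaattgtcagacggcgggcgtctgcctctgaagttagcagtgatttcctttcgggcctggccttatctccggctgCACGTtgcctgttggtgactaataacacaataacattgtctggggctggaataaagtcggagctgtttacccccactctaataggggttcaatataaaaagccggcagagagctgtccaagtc
ADM: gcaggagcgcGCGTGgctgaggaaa
NRP2: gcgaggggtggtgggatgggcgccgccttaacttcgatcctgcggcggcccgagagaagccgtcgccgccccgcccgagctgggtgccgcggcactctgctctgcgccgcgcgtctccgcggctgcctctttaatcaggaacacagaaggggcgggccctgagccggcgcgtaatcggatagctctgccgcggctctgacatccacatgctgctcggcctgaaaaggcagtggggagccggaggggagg
VEGFC held 1 match, 59 bases before its start, VEGFB held 1, 61 bases before, and PGF held 1 in 1 of its 2 windows, 162 bases before. EDN1 has further annotated starts, and the window of the most upstream one held 3 matches while the other held 0. The motif is common: 43.2% of all 35116 RefSeq windows of this length and 54.9% of the 13968 windows of tested genes held it. A match is a description of the letters and not evidence of binding.

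Both targeted mRNAs were reduced rather than absent. HIF1A fell by 1.34 on the log2 scale in HIF1α-ko (adjusted p = 0.000851 from limma) and by 0.71 in the dual knockout (adjusted p = 0.0104), where it did not differ detectably from HIF2α-ko (-0.19, 95% confidence interval -0.62 to 0.23, adjusted p = 0.453). EPAS1 fell by 1.59 in HIF2α-ko and by 1.45 in the dual knockout (adjusted p = 0.000375 and 1.3e-05). Vector replicate 1 stood apart from its group, with Pearson's r across genes of 0.968 and 0.966 with the other 2 libraries and 0.989 between those. Across all tested genes the median log2 fold change against vector was 0.18 for HIF1α-ko, -0.04 for HIF2α-ko and 0.21 for the dual knockout. It was 0.23 for HIF1α-ko against HIF2α-ko, and for HIF1α/2α-ko 0.07 against HIF1α-ko and 0.23 against HIF2α-ko. For the interaction defined below it was 0.12. All were close to 0 after median ratio scaling, so a scaling choice shifts the values of a comparison by about its median, and less for genes near 1 TPM. Of 9 endothelial markers, FLT1 was listed at 0 throughout, CLDN5, ERG and TEK stayed below 1 TPM, PECAM1 and KDR reached 1.19 and 1.31 TPM, and VWF, CDH5 and TIE1 reached 2.93, 3.63 and 5.93 TPM. Of 6 pericyte markers, RGS5 and KCNJ8 stayed below 1 TPM and ABCC9 reached 3.54 TPM, while PDGFRB, CSPG4 and NOTCH3 were at 21.0 to 48.4, 34.9 to 130 and 7.52 to 16.4 TPM. Of 6 macrophage and microglia markers, PTPRC, AIF1, CD14 and ITGAM stayed below 1 TPM, whereas CSF1R reached 7.34 TPM and CD68, a lysosomal protein that other cells also make, was at 587 to 1633 TPM. The summed level in HIF1α/2α-ko was 3.70 to 4.36 TPM for the endothelial list and 80.9 to 83.2 for the pericyte list, below the 9 other libraries, at 5.61 to 13.9 and 106 to 189. For the macrophage list it was 591 to 821 TPM in HIF1α/2α-ko, 1288 to 1638 in vector, 821 to 1067 in HIF1α-ko and 1015 to 1229 in HIF2α-ko, set almost wholly by CD68. The part of these markers in the members' values was not tested. Among 7 markers fixed for the line itself VIM and CD44 were abundant, with 5635 to 14690 and 399 to 1412 TPM, NES and OLIG2 were at 2.64 to 6.17 and 0.884 to 19.2, and SOX2, GFAP and S100B stayed below 1 TPM in every library.

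The members differed widely in level. VEGFA, ADM and VEGFB were among the most abundant transcripts of these cells, ranking between 65 and 150, 72 and 463, and 196 and 373 of 20263 genes over the 12 libraries. NRP2, ANGPTL4, NRP1 and VEGFC followed, and EDN1 and PGF lay near or below 1 TPM.

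**Figure D1:**
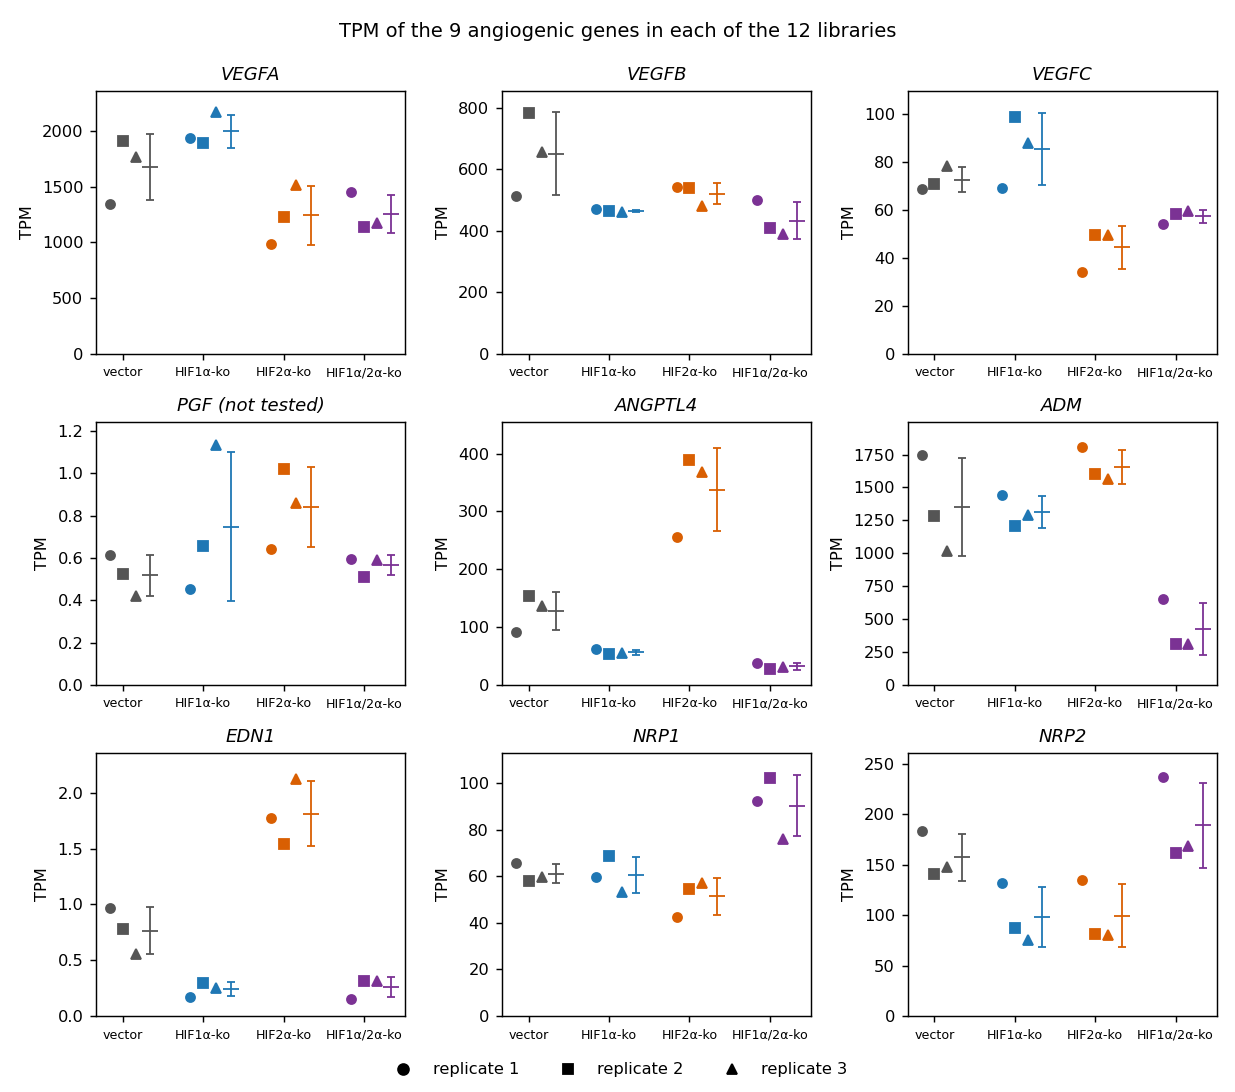
TPM (linear axes from 0) of each of the 9 genes in the 12 libraries, with 1 point per library, its shape showing the replicate number, and the mean ± SD of each group (n = 3) beside it. ANGPTL4 and EDN1 are lowest in HIF1α-ko and HIF1α/2α-ko and highest in HIF2α-ko, ADM is low in HIF1α/2α-ko alone, and replicate 1 is the highest NRP2 library of every group.

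Each comparison used limma on log2(TPM + 1) with Benjamini-Hochberg adjustment over all 11731 genes, and a gene was called at an adjusted p under 0.05. In HIF1α-ko against vector, 3 of the 8 tested members were called, all lower (VEGFB, ANGPTL4 and EDN1), where 26.1% of all tested genes were called, 17.3% higher and 8.77% lower. In HIF2α-ko against vector, 3 members were called, ANGPTL4 and EDN1 higher and VEGFC lower, against 11% of all tested genes, 5.07% higher and 5.89% lower. In HIF1α/2α-ko against vector, 5 members were called, NRP1 higher and VEGFB, ANGPTL4, ADM and EDN1 lower, against 46.7% of all tested genes, 31.8% higher and 14.8% lower. The median log2 fold change of the 8 members was -0.24, -0.28 and -0.44 in the 3 comparisons, beside the medians of all tested genes given above. Since EDN1 could be tested only through HIF2α-ko, these counts describe the members that passed and carry no test. A single transcript level per culture does not tell fewer cells expressing a gene from less RNA per cell.

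**Figure D2:**
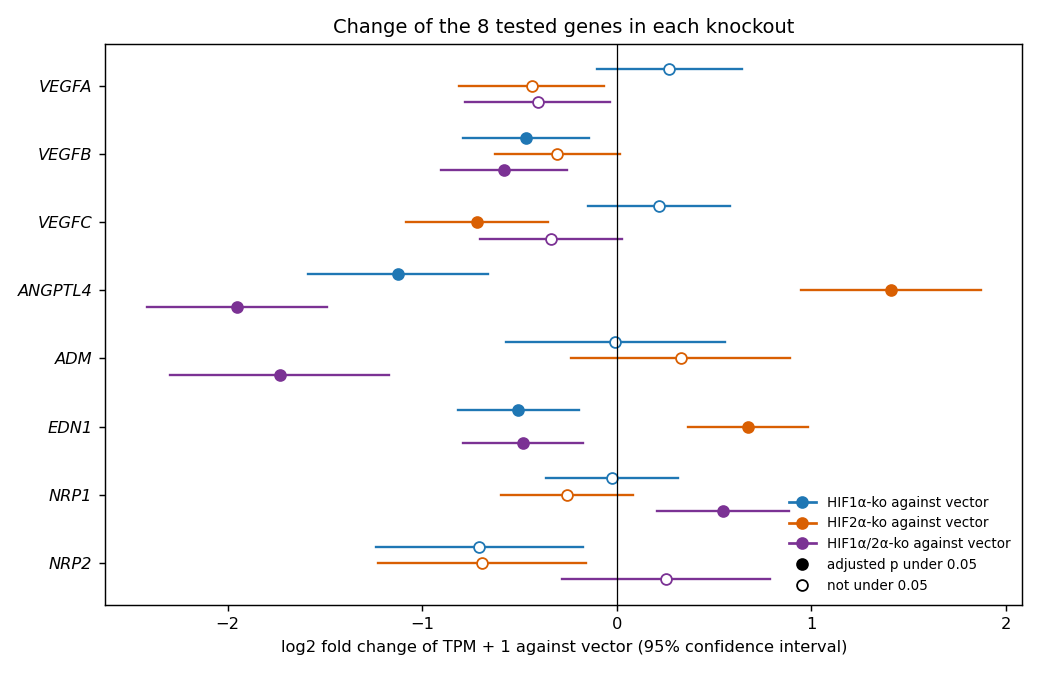
Log2 fold change of TPM + 1 against vector, with its 95% confidence interval from limma, for the 8 tested genes in the 3 knockouts. Filled points have an adjusted p under 0.05. ANGPTL4 and EDN1 lie on opposite sides of 0 in HIF1α-ko and HIF2α-ko, and ADM leaves 0 in HIF1α/2α-ko alone.

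VEGFA (ENSG00000112715, GRCh38 chromosome 6, 43770184 to 43786487) had the highest mean level of the members in vector, HIF1α-ko and the dual knockout, while ADM exceeded it in all 3 HIF2α-ko libraries and in vector replicate 1. Its TPM was 1342, 1912 and 1765 in the vector libraries and 1934, 1894 and 2168 in HIF1α-ko. It was 985, 1224 and 1512 in HIF2α-ko, and 1454, 1139 and 1177 in the dual knockout. Each knockout overlapped vector, while all 3 HIF1α-ko libraries lay above all 6 libraries of the other knockouts. Against vector none of the changes passed the threshold: on the log2 scale HIF1α-ko gave 0.27 ± 0.17 (± standard error; adjusted p = 0.258), HIF2α-ko -0.44 (adjusted p = 0.124) and the dual knockout -0.41 (adjusted p = 0.0704). Between knockouts VEGFA was higher in HIF1α-ko than in HIF2α-ko by 0.71 (adjusted p = 0.0115) and lower in the dual knockout than in HIF1α-ko by a log2 change of -0.68 (adjusted p = 0.0117). HIF1α/2α-ko and HIF2α-ko differed by 0.03, with a 95% confidence interval of -0.34 to 0.40. The call between the single knockouts was lost with median ratio scaling (0.46, adjusted p = 0.138) and without HIF1α-ko replicate 3 (0.0502) or HIF2α-ko replicate 1 (0.0518). The change of VEGFA against vector was called without vector replicate 1, at -0.59 for HIF2α-ko (0.0287) and -0.56 for the dual knockout (0.0172), and in HIF1α/2α-ko also with median ratio scaling (-0.65, 0.021) and without HIF2α-ko replicate 1 (0.0491) or HIF1α/2α-ko replicate 1 (0.0369).

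VEGFB (ENSG00000173511, GRCh38 chromosome 11, 64234538 to 64238793) was lower in HIF1α-ko and in the dual knockout. Its TPM was 514, 785 and 658 in vector and 470, 463 and 462 in HIF1α-ko. It was 542, 539 and 481 in HIF2α-ko, and 502, 408 and 389 in the dual knockout. Vector did not overlap HIF1α-ko or HIF1α/2α-ko, although vector replicate 1 lay close to both, and it overlapped HIF2α-ko. On the log2 scale HIF1α-ko gave -0.47 ± 0.15 (± standard error; adjusted p = 0.0376), HIF2α-ko -0.30 (adjusted p = 0.212) and the dual knockout -0.58 (adjusted p = 0.00702). In the fit reported the knockouts did not differ detectably from each other in VEGFB, with adjusted p of 0.434, 0.613 and 0.152 over the 3 pairs. The call in HIF1α/2α-ko held in every refit, although its size was under a log2 fold change of 1, but the call in HIF1α-ko was lost in 10 of 21, among them without vector replicate 2 (-0.32, adjusted p = 0.147) or 3 (0.101), without HIF1α-ko replicate 1, 2 or 3 (0.0645, 0.0978 and 0.101) and without HIF2α-ko replicate 2 (0.0533). In HIF2α-ko the fall was called without vector replicate 1 (-0.47, adjusted p = 0.0218). Between knockouts, VEGFB was called lower in HIF1α/2α-ko than in HIF2α-ko in 3 of 22 refits (adjusted p down to 0.0167 from limma). These were median ratio scaling, the replicate number as a block on the knockout groups, and the fit without replicate 1 of every group.

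VEGFC (ENSG00000150630, GRCh38 chromosome 4, 176683538 to 176792727, minus strand) was the ligand that fell in HIF2α-ko. Its TPM was 68.7, 70.6 and 78.2 in vector and 69.2, 98.6 and 87.7 in HIF1α-ko. It was 33.9, 49.4 and 49.6 in HIF2α-ko, and 53.9, 58.0 and 59.4 in the dual knockout. The groups stood in the order HIF2α-ko, HIF1α/2α-ko, vector and HIF1α-ko, and only the last pair of neighbours overlapped. The log2 fold change against vector was -0.72 in HIF2α-ko (standard error 0.17, adjusted p = 0.0188), 0.22 in HIF1α-ko (adjusted p = 0.357) and -0.34 in the dual knockout (adjusted p = 0.117). VEGFC was higher in HIF1α-ko than in HIF2α-ko by 0.93 (adjusted p = 0.00234), and HIF1α/2α-ko lay below HIF1α-ko, with a log2 change of -0.55 (adjusted p = 0.0268). The dual knockout exceeded HIF2α-ko by 0.38 (adjusted p = 0.0824), and that difference was called with the replicate number as a block on the knockout groups (adjusted p = 0.0135). In HIF1α/2α-ko against vector VEGFC was called with median ratio scaling (-0.58, 0.00536) and quantile normalization (-0.56, 0.00865). The fall in HIF2α-ko was not called with the compared groups only, nor without vector replicate 3 (-0.66, 0.0826) or HIF2α-ko replicate 1 (-0.54, 0.0638). The difference between HIF1α/2α-ko and HIF1α-ko was not called without any 1 library of HIF1α/2α-ko (0.0624, 0.0646 and 0.0583 in replicate order) or HIF1α-ko replicate 2 (0.109) or 3 (0.0822).

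PGF (ENSG00000119630, GRCh38 chromosome 14, 74941834 to 74955784, minus strand) was barely transcribed, at 0.419 to 0.615 TPM in vector and 0.453 to 1.14 in HIF1α-ko, then 0.643 to 1.02 in HIF2α-ko and 0.512 to 0.596 in the dual knockout. Fitted without the filter, PGF gave a log2 fold change of 0.19, 0.27 and 0.05 in the 3 knockouts (adjusted p = 0.355, 0.248 and 0.844). VEGFD, the remaining ligand of the family, did not exceed 0.530 TPM.

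VEGFA and VEGFB made up nearly all VEGF family transcripts, counted over VEGFA, VEGFB, VEGFC, VEGFD and PGF. VEGFA took 69.8% ± 0.73 of the summed TPM in vector (mean ± SD, n = 3), while HIF1α-ko gave 78.3% ± 1.33, HIF2α-ko 68.2% ± 5.49 and the dual knockout 71.9% ± 0.83. The HIF1α-ko libraries, at 77.1% to 79.7%, lay above all 9 others. The ratio of VEGFA to VEGFB was 2.58 ± 0.13, 4.30 ± 0.34, 2.41 ± 0.67 and 2.91 ± 0.12 in the same order of groups, and in HIF2α-ko it ran from 1.82 to 3.14 between libraries. With 3 libraries against 3 an exact permutation test cannot give a two-sided p below 0.1, so these shares carry no test. The summed VEGF family level was 2398 ± 431 TPM in vector and 2550 ± 147 in HIF1α-ko, against 1807 ± 241 in HIF2α-ko and 1747 ± 228 in the dual knockout.

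**Figure D3:**
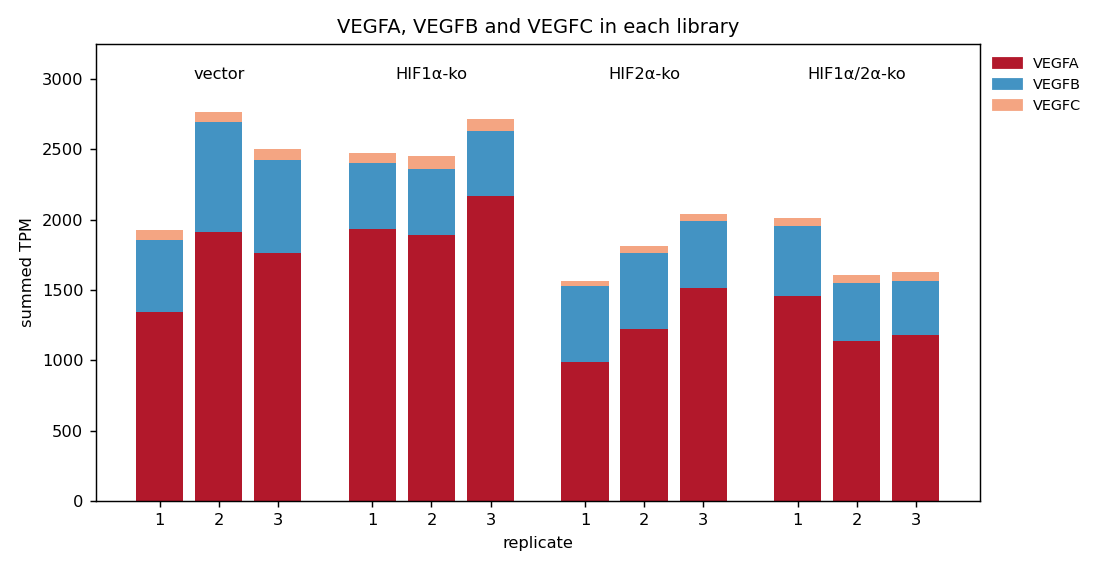
Stacked TPM (linear axis from 0) of VEGFA, VEGFB and VEGFC in each of the 12 libraries, 1 bar per library, grouped by knockout. VEGFA takes the greater share in every library, between 63.1% and 79.7% of the VEGF family, and vector replicate 1 lies below the other vector libraries.

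ANGPTL4 (ENSG00000167772, GRCh38 chromosome 19, 8363289 to 8374373) changed most among the members, and in opposite directions in the single knockouts. Its TPM was 91.5, 154 and 137 in vector and 61.5, 53.1 and 55.5 in HIF1α-ko. It was 256, 390 and 368 in HIF2α-ko, and 38.5, 26.7 and 30.2 in the dual knockout. No pair of groups overlapped, and the order from low to high was HIF1α/2α-ko, HIF1α-ko, vector and HIF2α-ko. Against vector ANGPTL4 fell by 1.12 on the log2 scale in HIF1α-ko (standard error 0.21, adjusted p = 0.00327). It rose by 1.41 in HIF2α-ko (adjusted p = 0.00297) and fell by 1.95 in the dual knockout (adjusted p = 2.31e-05). HIF1α-ko and HIF2α-ko differed by -2.53 (adjusted p = 9.27e-06), and HIF1α/2α-ko and HIF2α-ko by -3.36 (adjusted p = 8.89e-07). HIF1α/2α-ko also lay below HIF1α-ko, with a log2 change of -0.83 (adjusted p = 0.0123), a call lost without HIF1α/2α-ko replicate 2 (-0.72, adjusted p = 0.0531). The other calls of ANGPTL4 held under every alternative run.

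EDN1 (ENSG00000078401, GRCh38 chromosome 6, 12290363 to 12297194) was, like ANGPTL4, highest in HIF2α-ko and lowest in HIF1α-ko and HIF1α/2α-ko, at a level near the limit of the filter. Because only its HIF2α-ko libraries took it past the filter, the tests of EDN1 are given as a description. Its TPM was 0.966, 0.779 and 0.553 in vector and 0.171, 0.294 and 0.254 in HIF1α-ko. It was 1.77, 1.54 and 2.12 in HIF2α-ko, and 0.156, 0.316 and 0.311 in the dual knockout. Vector stood clear of every knockout, and HIF1α-ko and HIF1α/2α-ko overlapped. On the log2(TPM + 1) scale, which understates changes at this level, EDN1 fell by 0.51 in HIF1α-ko (standard error 0.14, adjusted p = 0.0224), rose by 0.67 in HIF2α-ko (adjusted p = 0.0121) and fell by 0.48 in the dual knockout (adjusted p = 0.0147). It was lower in HIF1α-ko than in HIF2α-ko by a log2 change of -1.18 (adjusted p = 0.00016) and lower in HIF1α/2α-ko than in HIF2α-ko by -1.15 (adjusted p = 5.34e-05). HIF1α/2α-ko and HIF1α-ko differed by 0.02, with a 95% confidence interval of -0.29 to 0.33. Against vector each EDN1 call was lost when only the compared groups were fitted (0.0567, 0.0568 and 0.0596). In HIF1α-ko it was also lost without vector replicate 2 (0.0623) or HIF1α-ko replicate 1, 2 or 3 (0.0569, 0.0533 and 0.0666), in HIF2α-ko without vector replicate 3 (0.58, 0.0613) or HIF2α-ko replicate 3 (0.60, 0.06), and in HIF1α/2α-ko without replicate 1 of every group (-0.34, 0.0661).

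ADM (ENSG00000148926, GRCh38 chromosome 11, 10304680 to 10307397) fell in the dual knockout and passed the threshold in neither single knockout. Its TPM was 1749, 1284 and 1017 in vector and 1445, 1210 and 1288 in HIF1α-ko. It was 1806, 1599 and 1567 in HIF2α-ko, and 650, 307 and 311 in the dual knockout. The dual knockout lay below all 9 other libraries, and its replicate 1 was 2.10 times the mean of its other 2 libraries. ADM fell by 1.73 on the log2 scale in HIF1α/2α-ko against vector (standard error 0.26, adjusted p = 0.000198), with -1.72 against HIF1α-ko (adjusted p = 0.000543) and -2.06 against HIF2α-ko (adjusted p = 6.1e-05). In HIF1α-ko the change of ADM from vector was -0.01 (95% confidence interval -0.57 to 0.56, adjusted p = 0.985) and in HIF2α-ko 0.33 (-0.23 to 0.89, adjusted p = 0.453), and both intervals are wide. The calls of ADM in the dual knockout held under every alternative run. Without replicate 1 of every group, ADM was also called in HIF2α-ko (0.47, adjusted p = 0.0133).

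NRP1 (ENSG00000099250, GRCh38 chromosome 10, 33177492 to 33336262, minus strand) rose in the dual knockout. Its TPM was 65.8, 58.1 and 59.8 in vector and 59.6, 68.7 and 53.2 in HIF1α-ko. It was 42.4, 54.6 and 57.3 in HIF2α-ko, and 92.4, 102 and 76.2 in the dual knockout. All 3 dual knockout libraries lay above all 9 others. The log2 fold change of NRP1 was 0.55 in HIF1α/2α-ko against vector (standard error 0.16, adjusted p = 0.0125), 0.57 against HIF1α-ko (adjusted p = 0.0171) and 0.80 against HIF2α-ko (adjusted p = 0.00127). The single knockouts gave -0.02 and -0.26 against vector (adjusted p = 0.928 and 0.32). The rise of NRP1 against vector was lost with median ratio scaling (0.30, 0.135), with quantile normalization (0.35, 0.0745) and without HIF1α/2α-ko replicate 2 (0.45, 0.061), and that against HIF1α-ko without HIF1α-ko replicate 3 (0.0747) or HIF1α/2α-ko replicate 2 (0.0762).

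NRP2 (ENSG00000118257, GRCh38 chromosome 2, 205681990 to 205798133) was higher in the dual knockout than in either single knockout. Its TPM was 183, 140 and 148 in vector and 132, 87.5 and 74.9 in HIF1α-ko. It was 135, 81.5 and 80.7 in HIF2α-ko, and 237, 161 and 168 in the dual knockout. Replicate 1 was the highest library of every group, at 1.27, 1.62, 1.67 and 1.44 times the mean of the other 2 libraries. Both single knockouts lay below vector without overlap, yet the log2 fold changes of -0.71 in HIF1α-ko (standard error 0.25, adjusted p = 0.0516) and -0.69 in HIF2α-ko (adjusted p = 0.0922) did not pass. Without replicate 1 of the knockout itself these NRP2 falls were called (-0.94 in each, adjusted p = 0.018 and 0.0413). HIF1α/2α-ko exceeded HIF1α-ko by 0.96 (adjusted p = 0.0123) and HIF2α-ko by 0.94 (adjusted p = 0.00764), and differed from vector by 0.25 (-0.28 to 0.79, adjusted p = 0.422). The difference from HIF1α-ko was lost without HIF1α-ko replicate 3 (0.79, 0.0559) and that from HIF2α-ko with median ratio scaling (0.64, 0.0996). The fall in HIF1α-ko was called in 7 of 21 refits. Among them were median ratio scaling, quantile normalization and the fits without HIF2α-ko replicate 1 (0.0323) or HIF1α/2α-ko replicate 1 (0.0405).

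In the comparisons between knockouts, 4 of the 8 members were called in HIF1α-ko against HIF2α-ko (against 25.1% of all tested genes, 17.8% higher and 7.37% lower), VEGFA and VEGFC higher and ANGPTL4 and EDN1 lower. In HIF1α/2α-ko against HIF1α-ko 6 were called (against 28.3% of all tested genes, 17.7% higher and 10.6% lower), NRP1 and NRP2 higher and VEGFA, VEGFC, ANGPTL4 and ADM lower. In HIF1α/2α-ko against HIF2α-ko 5 were called (against 46.4% of all tested genes, 33.5% higher and 12.9% lower), NRP1 and NRP2 higher and ANGPTL4, ADM and EDN1 lower. Calls of VEGFA, VEGFC, ANGPTL4, NRP1 and NRP2 among these depended on a library or a scaling, as given with each gene. EDN1 passed the filter only through HIF2α-ko, so its calls against that group are a description and carry no test. All these counts come from the fit without the replicate number. With that number as a block on the knockout groups, VEGFB was also called lower and VEGFC higher in HIF1α/2α-ko against HIF2α-ko. Genes called then rose to 5927 in HIF1α-ko against HIF2α-ko and 5684 in HIF1α/2α-ko against HIF1α-ko.

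Whether the dual knockout equalled the sum of the single knockouts was tested as an interaction, the log2 change in HIF1α/2α-ko minus the sum of the changes in HIF1α-ko and HIF2α-ko. Of the 8 members 5 were called, 3 lower and 2 higher, against 20.6% of all tested genes, 7.35% lower and 13.2% higher. ANGPTL4 had the largest term: its single changes summed to 0.28, whereas the dual change was -1.95, an interaction of -2.24 (95% confidence interval -2.89 to -1.58, adjusted p = 0.000993 from limma). For ADM the sum was 0.32 and the dual change -1.73, an interaction of -2.05 (adjusted p = 0.00334). For EDN1 the sum was 0.17 and the dual change -0.48, an interaction of -0.65 (adjusted p = 0.0392). ANGPTL4 and ADM were therefore lower in the dual knockout than the sum of the single changes. The sum of EDN1 rests on HIF2α-ko, the group through which it passed the filter, so its term is a description and not independent of that choice. Both neuropilins lay on the other side. For NRP2 the single changes summed to -1.40 and the dual change was 0.25, an interaction of 1.65 (adjusted p = 0.00734), and for NRP1 the sum was -0.28 and the dual change 0.55, an interaction of 0.82 (adjusted p = 0.0218). For VEGFA, VEGFB and VEGFC the interaction was -0.24, 0.19 and 0.16 (adjusted p = 0.519, 0.552 and 0.66), with 95% confidence intervals of -0.77 to 0.29, -0.26 to 0.65 and -0.35 to 0.68. The terms of ANGPTL4, ADM and NRP2 were called under every alternative run. That of EDN1 was lost in 11 alternatives, with a pseudocount of 0.1 (-1.09, adjusted p = 0.125) and without any 1 of 10 libraries, all but vector replicate 1 and HIF2α-ko replicate 2 (at most 0.0976), and that of NRP1 without HIF1α-ko replicate 3 (0.0595), HIF1α/2α-ko replicate 2 (0.0567) or replicate 1 of every group (0.0668).

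The signalling receptors of these ligands were low or listed at 0 in the same libraries. FLT1 was listed at 0 in all 12, FLT4 did not exceed 0.04 TPM, and KDR, the main VEGFA receptor, was at 0.833 to 1.31 TPM in vector and 0.405 to 0.504 in HIF1α/2α-ko, below the filter. Of the adrenomedullin receptor, CALCRL did not exceed 0.06 TPM, RAMP1 reached 0.899 TPM, and RAMP2 and RAMP3 were listed at 0. Of the endothelin receptors, EDNRB did not exceed 0.06 TPM, and EDNRA was at 0.742, 2.46 and 1.89 TPM in HIF1α-ko and at most 0.661 elsewhere. NRP1 and NRP2, at 42.4 to 102 and 74.9 to 237 TPM, were thus the only receptors of these ligands above 3 TPM among those examined, and they serve as co-receptors.

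**Figure D4:**
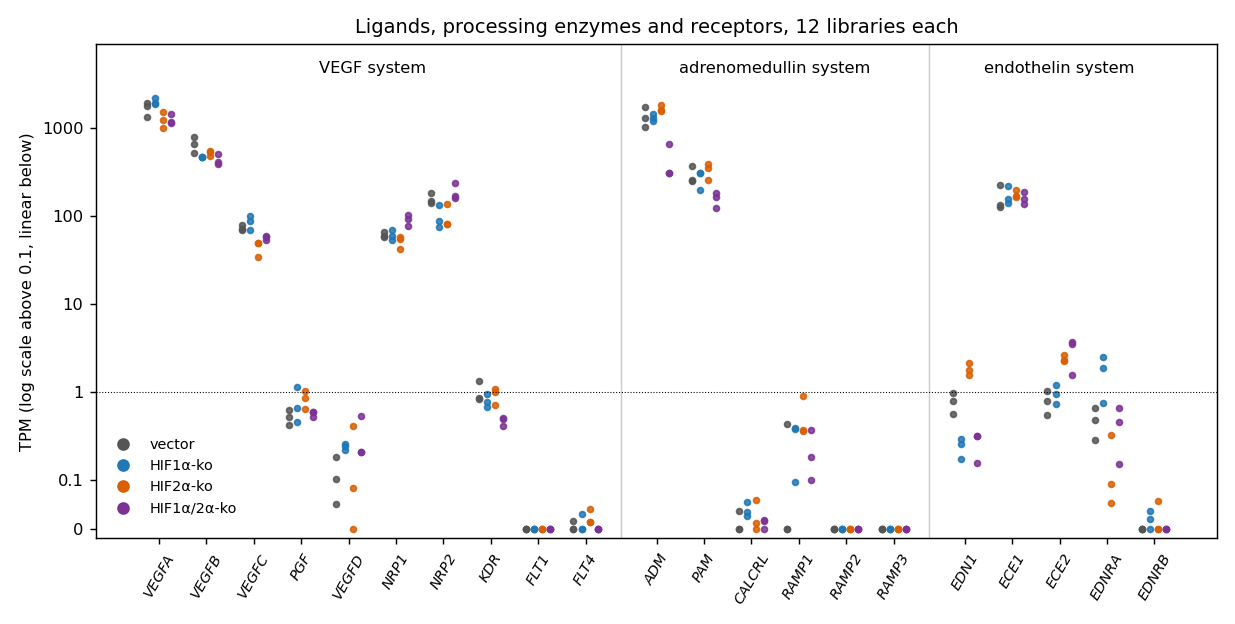
TPM (log scale above 0.1 and linear below, dotted line at 1 TPM) of ligands, processing enzymes and receptors of the VEGF, adrenomedullin and endothelin systems, with 1 point per library and colours for the 4 groups. Ligands such as VEGFA and ADM and the enzymes PAM and ECE1 lie at the top of the axis, and FLT1, FLT4, CALCRL, RAMP2, RAMP3 and EDNRB lie at or near 0.

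The genes that process and accompany the members were taken from lists given in the methods. PAM, which amidates adrenomedullin into its active form, moved in the direction of ADM: its TPM was 365, 246 and 257 in vector and 123, 166 and 182 in HIF1α/2α-ko, a log2 fold change of -0.88 (adjusted p = 0.0067), with -0.11 and 0.20 in the single knockouts (adjusted p = 0.749 and 0.612) and an interaction of -0.97 (adjusted p = 0.0473). That interaction was lost with no filter (0.0812), with no trend (0.0585), and without replicate 2 or 3 of any group or HIF1α/2α-ko replicate 1 (at most 0.108). ADM and PAM were the 2 tested genes of the 7 in the adrenomedullin list. The endothelin-converting enzyme ECE1 stayed at 128 to 227 TPM and was not called against vector (adjusted p = 0.787, 0.688 and 0.991), while the low ECE2 rose by 0.94 in HIF2α-ko (adjusted p = 0.0195) and by 1.09 in the dual knockout (adjusted p = 0.00163), the former lost when any HIF2α-ko library (0.0629, 0.0624 and 0.0579) or vector replicate 2 (0.0537) or 3 (0.089) was left out. Among 5 genes that process VEGFC and VEGFD, 4 were tested, and FURIN, a convertase, rose in every knockout, by 1.78, 1.53 and 2.52 (adjusted p = 0.0105, 0.0386 and 0.000476). FURIN was at 24.9 TPM in vector replicate 1 and at 4.42 and 5.41 in the other vector libraries, and without vector replicate 1 its rises were 2.49, 2.24 and 3.23. In HIF2α-ko FURIN was no longer called without any HIF2α-ko library (0.109, 0.0984 and 0.0859), vector replicate 2 (0.134) or 3 (0.163), or replicate 2 or 3 of HIF1α-ko (0.0548 each) or of HIF1α/2α-ko (0.053 and 0.0541), nor in HIF1α-ko without vector replicate 3 (0.0514). The FURIN call in HIF2α-ko was also lost with no filter (0.0765) and with the compared groups only (0.125). PCSK5, another convertase, fell by 0.83 in HIF1α-ko (adjusted p = 0.00375) and by 0.72 in the dual knockout (adjusted p = 0.00312). Its value in HIF2α-ko was 0.55 (adjusted p = 0.0465), which no longer passed in 12 alternatives, among them without vector replicate 2 or 3 (0.117 and 0.135) and without HIF2α-ko replicate 2 or 3 (0.162 and 0.164).

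Partners of the neuropilins were read the same way. Of 12 semaphorins and plexins, 7 were tested. In HIF1α/2α-ko 1 was higher and 2 were lower, in HIF1α-ko 1 was higher and 1 lower, and in HIF2α-ko 2 were higher. The 3 of 7 called in HIF1α/2α-ko lie close to the 46.7% of all tested genes called there, and the shares for HIF1α-ko and HIF2α-ko were 26.1% and 11%. PLXNA1, a plexin that signals for semaphorins bound to neuropilins, rose by 0.74 in HIF1α-ko (adjusted p = 0.00887) and by 1.55 in the dual knockout (adjusted p = 2.45e-05), with 11.2 to 11.7 TPM in vector and 27.7, 40.7 and 40.8 in the latter. PLXND1 fell by 0.93 in HIF1α/2α-ko (adjusted p = 0.00338) and by 0.83 in HIF1α-ko (adjusted p = 0.0142), the latter lost without HIF1α-ko replicate 2 (0.0514) or 3 (0.0686). In HIF1α/2α-ko NRP1 and PLXNA1 were thus higher while PLXND1 was lower. Against vector, the calls of PLXNA1 and PLXND1 there held in every alternative. That of NRP1 was lost with median ratio scaling, with quantile normalization and without HIF1α/2α-ko replicate 2.

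Other secreted regulators of vessels gave a mixed picture. Of 15 further angiogenic ligands, 12 were tested, and in HIF1α/2α-ko 2 were higher and 5 lower, against 1 and 1 in HIF1α-ko and 1 and 0 in HIF2α-ko. Of all tested genes, 31.8% were higher and 14.8% lower in HIF1α/2α-ko, 17.3% and 8.77% in HIF1α-ko, and 5.07% and 5.89% in HIF2α-ko, and no test was made of the list. Angiogenin (ANG) fell by 0.86 in HIF1α-ko (adjusted p = 0.00766) and by 1.65 in the dual knockout (adjusted p = 3.63e-05), whereas PDGFA, a growth factor for pericytes, rose by 0.94 (adjusted p = 0.00634) and by 1.66 (adjusted p = 4.92e-05). Of 11 angiopoietins, angiopoietin-like proteins and TIE receptors, 4 were tested, ANGPTL4 among them, and 3 were lower in HIF1α/2α-ko, beside 14.8% of all tested genes. ANGPTL2 was lower in all 3 knockouts, by -0.64, -0.98 and -0.95 (adjusted p = 0.0377, 0.0117 and 0.00256), so it did not share the rise of ANGPTL4 in HIF2α-ko. The ANGPTL2 call in HIF1α-ko was lost in 10 alternatives, with adjusted p up to 0.148 without vector replicate 2. That in HIF2α-ko was lost with the compared groups only (0.0532) and without vector replicate 3 (0.0574) or HIF2α-ko replicate 3 (0.052). Of 12 inhibitors of angiogenesis, 7 were tested, and in HIF1α/2α-ko 2 were higher and 2 lower, beside 31.8% and 14.8% of all tested genes. THBS1 fell by 0.74 there (adjusted p = 0.000496) and THBS2 rose by 0.70 (adjusted p = 0.00525), a rise lost with median ratio scaling (0.47, 0.0592) and quantile normalization (0.38, 0.121). THBS1 lay near the limit of the filter, at 1.62, 1.56 and 1.59 TPM in vector and 0.558, 0.549 and 0.539 in HIF1α/2α-ko.

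For each member called against vector, the genes with the most similar profile were taken by the root mean square difference of log2(TPM + 1) over the 12 libraries, each gene centred on its own mean. ANGPTL4 was nearest to MT3 (0.40) and SLAMF9 (0.46), against its own root mean square deviation of 1.28, and MT3, a metallothionein, was at 3.03 ± 1.27, 0.249 ± 0.231, 12.1 ± 1.14 and 0.120 ± 0.150 TPM in vector, HIF1α-ko, HIF2α-ko and the dual knockout (mean ± SD, n = 3). EDN1 was nearest to P4HA2 (0.14), a subunit of collagen prolyl hydroxylase at 287 ± 6.16, 227 ± 14.2, 447 ± 10.3 and 197 ± 8.18 TPM, and to ADCY8 (0.16), against a deviation of 0.49. ADM was nearest to KCNE4 (0.25) and OLFML3 (0.26), against 0.86, and OLFML3 was at 151 ± 79.3, 144 ± 13.1, 151 ± 1.64 and 34.8 ± 5.58 TPM. NRP1 was nearest to PPA1 (0.12) and NRBF2 (0.15), against 0.33, VEGFC to LAMP2 (0.15) and SBDS (0.16), against 0.39, and VEGFB to TUBB2A (0.09) and WBP1 (0.12), against 0.27. These likenesses were selected as the smallest differences among all tested genes and carry no test. The log2(TPM + 1) scale understates changes at low levels, and so those of EDN1, MT3 and SLAMF9. In proportion to vector, the mean TPM of EDN1 changed more in every knockout than that of P4HA2 or ADCY8. The likenesses given for EDN1 and ANGPTL4 therefore depend on this scale, and their profiles differ in size from those of their neighbours in TPM.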

How the data were processed

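Poly(A) RNA of 12 U87 libraries was sequenced. The authors deposited TPM values, 1 column per library, each summing to between 999955 and 999982. Their processing notes list FastQC 0.11.2, Trimmomatic 0.36, HISAT2 2.0, bedtools 2.26.0 and GRCh38. The tool that gave the TPM, the annotation and the use of strand are not given in the sources used here. Antisense genes annotated over 188, 561 and 147 exon bases of VEGFA, NRP1 and NRP2 could share reads with them. The antisense gene at ANGPTL4 overlaps 1 exon base. TPM keeps no depth, so no counting interval could be given and a 0 is described as listed at 0. Groups came from the labels of the libraries. The columns named H without a knockout code were taken as vector.

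A symbol was found for 20148 identifiers, GENCODE 29 gave 76 others, and 39 had none. TPM was transformed to log2(TPM + 1), genes at 1 TPM or more in 3 or more libraries were kept, and limma 3.58.1 in R 4.3.3 was fitted with all 4 groups in 1 model and a mean-variance trend. The 7 comparisons were each adjusted by the Benjamini-Hochberg method, at a threshold of 0.05. The fit was tested on simulated data. Tables used pandas 2.3.3 and numpy 2.4.6 in Python 3.11.15, and figures matplotlib 3.10.9. Promoter windows came from RefSeq (GRCh38.p14).

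The members and lists were chosen with earlier results of these data known. Genes named were the 9 members, HIF1A, EPAS1, the receptors of the ligands, the 2 further genes per list that had the smallest p in HIF1α/2α-ko, and the 2 tested genes most like each called member. VEGFD and the markers fall outside this rule. The lists were VEGF ligands, VEGF receptors with neuropilins, semaphorins and plexins, the adrenomedullin and endothelin systems, angiopoietins with TIE receptors, other angiogenic ligands, angiogenesis inhibitors, VEGFC and VEGFD processing, and markers of endothelial cells, pericytes, macrophages and the line itself.

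Alternatives were median ratio scaling, quantile normalization, a pseudocount of 0.1, dropping the filter or keeping genes of mean TPM 5 or more, the compared groups only, no trend, the replicate number as a block on all groups or on the knockout groups, a minimum size of 1 for the log2 fold change, and each library left out. A fit without replicate 1 of every group was added after seeing the data. Deviations from group means of same-numbered libraries correlated at r of 0.196 to 0.508 across genes between knockout groups, so the numbers were taken to pair these groups, from the values alone. Between vector and knockouts r was -0.0265 to 0.163, which did not pair them.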

Additional observations from a re-analysis of the deposited data

Results flagged for a closer look

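The interaction term was called for 5 of the 8 tested members (limma, Benjamini-Hochberg adjustment, n = 3 libraries per group), EDN1 among them as a value only. Of all tested genes, 20.6% were called, 7.35% lower and 13.2% higher, so such terms were common in these data. For ANGPTL4, ADM, NRP1 and NRP2 the change in the dual knockout was not the sum of both single changes. The log2 term was -2.24 for ANGPTL4 (adjusted p = 0.000993) and -2.05 for ADM (adjusted p = 0.00334), and in both all 3 dual knockout libraries lay below all 3 vector libraries. It was 0.82 for NRP1 (adjusted p = 0.0218), with all 3 dual knockout libraries above all 3 of vector, a call lost in 3 of 20 alternatives. It was 1.65 for NRP2 (adjusted p = 0.00734), whose dual knockout libraries overlapped vector. The term of EDN1 was -0.65 (adjusted p = 0.0392), at levels of at most 2.12 TPM. EDN1 passed the filter only through HIF2α-ko, a group that enters its term, and the call was lost in 11 of 19 alternatives, so it is given as a value only. The NRP2 libraries numbered 1 were the highest of their groups, and without them the term was still called. HIF1A mRNA was higher in the dual knockout than in HIF1α-ko, by 0.64 on the log2 scale (adjusted p = 0.0287 from limma). No explanation of the interaction terms was tested.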

How the results depend on the processing

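Of 56 comparisons of a member in the fit reported, 31 were called, of which 17 stayed called in every refit, 13 of them with a log2 fold change of at least 1, and 14 were lost in some refit. Of the 25 not called, 14 were never called and 11 were called in some refit. Over the 7 comparisons, 11% to 46.7% of all tested genes were called in the fit reported. The share of all tested genes that stayed called in every refit is not given here. These counts include EDN1, which passed the filter only through HIF2α-ko, so they describe the members and carry no test. The members called fell from 3 to 1 in HIF1α-ko and from 3 to 1 in HIF2α-ko when only the compared groups were fitted, and genes called in HIF2α-ko fell from 1286 to 474. Requiring a log2 fold change of at least 1 left 1 member in HIF1α-ko, 1 in HIF2α-ko, 2 in HIF1α/2α-ko, 2 in HIF1α-ko against HIF2α-ko, 1 in HIF1α/2α-ko against HIF1α-ko, 3 in HIF1α/2α-ko against HIF2α-ko and 3 in the interaction, and 814, 263, 2193, 764, 1000, 2160 and 1376 genes in the same order. Leaving out libraries gave 1 to 4, 1 to 7, 4 to 6, 3 to 5, 3 to 6, 5 to 7 and 3 to 5 members, and 1552 to 6461, 471 to 4283, 4319 to 7550, 1451 to 5521, 2310 to 5276, 4237 to 7122 and 1542 to 5040 genes. The highest number of genes came each time without replicate 1 of every group, chosen after seeing the data, and 7 members were then called in HIF2α-ko. In that fit PAM was called higher in HIF1α-ko (0.27, adjusted p = 0.0198 from limma), against -0.11 in the fit reported, and its range with libraries left out was -0.21 to 0.27. With the replicate block on all groups, which the numbers were not found to pair, 2068 genes were called in HIF2α-ko, NRP2 was called in HIF1α-ko (0.00197) and HIF2α-ko (0.00456), and VEGFC in HIF1α/2α-ko (0.0404), and with the block on the knockout groups 5927 in HIF1α-ko against HIF2α-ko and 5684 in HIF1α/2α-ko against HIF1α-ko. Blocking the knockout groups called VEGFB (0.0183) and VEGFC (0.0135) in HIF1α/2α-ko against HIF2α-ko and changed no other call of a member. Scaling moved the balance of all calls: 2760 genes were higher and 2698 lower in HIF1α/2α-ko with median ratio scaling, 2829 and 2848 with quantile normalization, against 3732 and 1741, and in HIF1α-ko 1285 and 1545, or 1581 and 1507, against 2031 and 1029. In HIF1α-ko against HIF2α-ko the split was 1034 and 1312, or 1345 and 1254, against 2084 and 865, and in HIF1α/2α-ko against HIF2α-ko 2651 and 2558, or 2736 and 2614, against 3933 and 1509. In HIF1α/2α-ko against HIF1α-ko it was 1822 and 1826 with quantile normalization against 2076 and 1246, and in the interaction 1301 and 1123, or 1350 and 1312, against 1552 and 862. The causes were not tested. EDN1 dropped out at a mean TPM of 5, and its changes near 1 TPM depend on the pseudocount. Without depth, precision at low levels is unknown.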
